A study of Danio rerio with 8 samples.

Results

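The 5 genes described here are linked to lipid transport at the surface of the zebrafish yolk: the apolipoprotein genes apobb.1, apoa1a and apoa2, the fatty acid-binding protein gene fabp1b.1 and the nuclear receptor gene hnf4a. They were found by their symbols in the platform annotation, which gave 6 probe sets of the 12447 on the array that are not controls: 2 for hnf4a and 1 for each of the others. The 8 Affymetrix arrays each measured total RNA of 120 pooled whole embryos, with 2 biological replicates in each of 4 groups. Wild type (WT) embryos came from crosses of AB with TÜB fish. MZspg embryos carried the m793 allele of spg, the gene of the POU-domain factor Pou5f3, and lacked its function in both egg and embryo. Each genotype was sampled at 2 stages of epiboly, the movement by which the blastoderm comes to enclose the yolk: 30% epiboly (4.7 hours of development) and 60% epiboly (7 hours). The labels give no further detail on the background of the MZspg fish, nor which embryos were timed from in vitro fertilisation and which from natural matings. The replicates are biological duplicates per the design text. The p-values rest on a spread between arrays pooled over the 4 groups, not on that of the compared groups alone, with empty cells filled as described below.

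The yolk syncytial layer is a sheet of nuclei in the outer yolk cytoplasm, just under the cells of the embryo. It breaks down yolk, packs lipids into lipoproteins and exports them to the embryo, a task that liver and intestine take over later. Apolipoprotein B is the large structural protein of such particles, apolipoproteins A-I and A-II are smaller surface proteins, and fatty acid-binding proteins carry fatty acids within the cell. Hnf4a is a nuclear receptor best known in mammals for switching on liver and gut genes, apolipoprotein genes among them. The arrays measured whole embryos, so a difference in the number of expressing cells or nuclei and one in RNA per cell cannot be told apart.

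Values are linear signal intensities as deposited, and differences are on the scale log2(signal + 9), which understates the change of dim probe sets. Tests covered the 7375 probe sets with a signal of 41.0 (the 40th percentile) or more on 2 or more arrays. Called means an adjusted p under 0.05 in the limma fit, by Benjamini-Hochberg over all 7375. The table holds empty cells, which were filled with 8.35, the 10th percentile, for the fits. A group with all cells filled shows no spread, though it enters the estimate of spread that the 4 groups share. Of signals whose replicate was empty 95% lay under 24.6, and a group with all arrays empty or under that level is taken as not above background: its fitted difference depends on the fill and the pseudocount, and the fold is then given as a lower bound, the geometric mean of the brighter group over 24.6. Of the 6 member probe sets 5 were tested, 1 per gene. Of these apobb.1, apoa2 and fabp1b.1 passed the filter only through the MZspg arrays of 60% epiboly, the group in which they are high. Their calls, counts and medians in any comparison with that group are a description and lend no support to a difference. The same holds for other genes named below that passed only through that group, among them angptl4, cldnf, itih2 and prdx5. The fits with an array left out kept this filter. Each leaves 1 array in a group, which then adds no spread, so a call kept or gained there rests on the other groups. The transcript of pou5f3 itself read 2214 to 3166 in WT and 891 to 1327 in MZspg, with the place of its probes relative to the m793 lesion not known here.

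Several arrays stood apart in ways that touch these genes. The geometric mean of 18 spike-in control probe sets was 592 for WT replicate 2 and 736 for MZspg replicate 2 of 60% epiboly, against 79.9 to 190 on the other 6 arrays. MZspg replicate 2 of 60% epiboly also had the most probe sets that reached the filter level on that array alone, 167 of 604, against 20 to 98 on the others. Of 7 genes on the array that mark later liver, gut, blood or muscle, 1 of them tested, the summed signal was 313 on this array and 28.3 to 69.4 on the other 7. That sum was led by fabp2, the intestinal fatty acid-binding protein gene, at 170 there, 9.33 on replicate 1 of the same group and empty elsewhere. The globin gene hbae3 added 53.2 there and was empty on the other 7. The gene fabp2 is also on the fatty acid-binding list below, and whether its signal here goes with that of the members was not tested. On MZspg replicate 2 of 30% epiboly, 9.93% of the 413 probe sets that rose between the stages in WT read above replicate 1. The part of these arrays in the results was not tested, and the genotype differences of the members are given with and without them.

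At 30% epiboly the lipid transport genes were barely detected in either genotype. Over the 5 tested probe sets 10 of the 20 cells of that stage were empty, and at 60% epiboly 0 of 20 were. For apobb.1, replicate 1 read 5.0 in WT and 5.26 in MZspg, and replicate 2 of both was empty. For apoa1a, WT replicate 1 was empty and replicate 2 read 12.6, while the MZspg arrays read 30.5 and 6.53. The apoa2 probe set had a single value, 12.3 on MZspg replicate 1, and fabp1b.1 had none on any of the 4 arrays. So the arrays of the genotypes did not separate in any of these 4 genes, and for apoa2 and fabp1b.1 no fold can be given. The fitted log2 difference between MZspg and WT was 0.01 for apobb.1 (95% interval -1.27 to 1.29, 1 cell filled in each group, adjusted p = 1 by limma) and 0.36 for apoa1a (-0.78 to 1.49, 1 WT cell filled, adjusted p = 0.978), with apoa1a at 1.03 without MZspg replicate 2 and at -0.32 without MZspg replicate 1. These intervals are wide enough to hold a change of more than 2-fold either way for apobb.1.

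**Figure D1:**
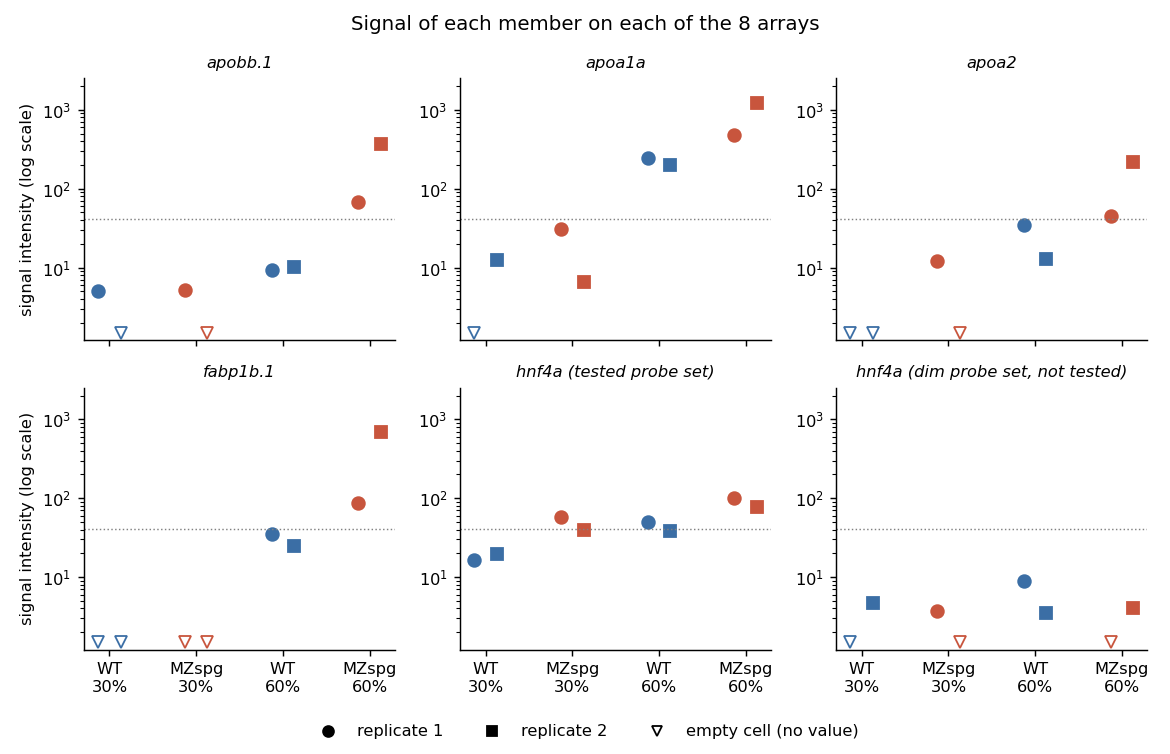
Signal intensity (log scale) of the 6 member probe sets on the 8 arrays, WT in blue and MZspg in red, with circles for replicate 1, squares for replicate 2 and open triangles at the foot for empty cells. The dotted line is the filter level of 41.0. The apolipoprotein and fabp1b.1 points of MZspg at 60% epiboly lie above those of WT, and all but those of hnf4a differ widely between the 2 MZspg arrays.

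The receptor gene hnf4a was the member with a signal on every array at 30% epiboly. It read 16.3 and 19.8 in WT and 57.1 and 39.7 in MZspg, so both MZspg arrays lay above both WT arrays. The WT arrays were under background level, and the MZspg mean was 1.93-fold above that level, replicate 1 alone 2.32-fold and replicate 2 alone 1.61-fold. The log2 difference was 1.07 (SE 0.357, 95% interval 0.29 to 1.85), but it did not pass over all probe sets (unadjusted p = 0.0112, adjusted p = 0.243 by limma). It stayed between 0.85 and 1.29 whichever array was left out and was called in 0 of those 8 fits. The other hnf4a probe set was dim on all arrays, between 3.51 and 8.88 with 3 empty cells, and was not tested. Of the 5 members 0 were called, where 1.68% of all tested probe sets were, 0.407% as higher and 1.27% as lower. By unadjusted p under 0.05, 1 member (hnf4a) passed, as did 9.36% of all. Both MZspg arrays lay above both WT arrays in 21.7% of all tested probe sets, and, among the members, in hnf4a.

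At 60% epiboly apobb.1 and fabp1b.1 read higher in MZspg than in WT and were called, among the probe sets that passed the filter. With no filter neither was called (adjusted p = 0.0545 and 0.134 by limma). The structural apolipoprotein gene apobb.1 read 9.29 and 10.2 in WT and 67.0 and 371 in MZspg, the WT signals being under the background level of 24.6. Both MZspg arrays lay far above both WT arrays, and they differed 5.54-fold from each other. The fitted log2 difference was 3.18 (SE 0.586, adjusted p = 0.0115 by limma), with 3.89 at a pseudocount of 1 and 1.89 at one of 50. That SE is pooled over all groups. Replicate 2 minus replicate 1 was 2.32 in MZspg at 60% epiboly. It was 0.07 in WT at 60%, and 0.31 in WT and 0.28 in MZspg at 30%, the last 2 with a filled cell. The adjusted p by limma was 0.115 with only the 4 arrays of the stage and 0.217 without moderation. The MZspg mean was at least 6.41-fold above background level, replicate 1 alone 2.72-fold and replicate 2 alone 15.1-fold. Between arrays of the same number, which are not taken as pairs, the log2 difference was 2.06 for replicate 1 and 4.31 for replicate 2. Omitting MZspg replicate 2 gave 2.02 and omitting MZspg replicate 1 gave 4.34, fits in which the gap between the MZspg arrays does not enter the SE. Omitting WT replicate 1 gave 3.15, where the call was lost. Without both arrays of high spike-in signal it was 2.06 (adjusted p = 0.0571).

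The fatty acid-binding gene fabp1b.1 read 35.2 and 24.4 in WT and 85.8 and 688 in MZspg at 60% epiboly. Both MZspg arrays lay above both WT arrays, and they differed 8.03-fold from each other. The log2 difference was 2.74 (SE 0.685, adjusted p = 0.0437 by limma). All 4 fabp1b.1 cells of 30% epiboly were filled, and these add no spread to that SE. With empty cells left missing the adjusted p was 0.0718 by limma. The difference was 1.30 without MZspg replicate 2 (adjusted p = 0.161) and 1.1 without both arrays of high spike-in signal (adjusted p = 0.25). It was 4.18 without MZspg replicate 1, a fit in which the gap between the MZspg arrays does not enter the SE. When any of the other 6 arrays was omitted the call was lost too, with differences of 2.54 to 2.94 and adjusted p of 0.0565 to 0.147.

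The A-type apolipoprotein genes stood higher in MZspg at 60% epiboly on every array but were not called. The gene of apolipoprotein A-I, apoa1a, read 244 and 197 in WT. In MZspg it read 484 and 1225, for a log2 difference of 1.77 (SE 0.518, 95% interval 0.64 to 2.90, adjusted p = 0.0751 by limma). Omitting MZspg replicate 2 gave 1.11, and omitting MZspg replicate 1 gave 2.43. With high against low spike-in arrays as a term in the fit the adjusted p was 0.0479, and without both high arrays the difference was 0.96. The gene of apolipoprotein A-II, apoa2, read 34.6 and 12.7 in WT. In MZspg it read 45.0 and 221, for a log2 difference of 1.86 (SE 0.583, 95% interval 0.58 to 3.13, adjusted p = 0.0925). Its WT and MZspg arrays numbered 1 differed by 0.31 and those numbered 2 by 3.4, though the numbers do not pair the samples. Omitting MZspg replicate 2 gave 0.81, and omitting MZspg replicate 1 gave 2.90. Without both arrays of high spike-in signal it was 0.31 (adjusted p = 0.797).

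For hnf4a the genotype difference at 60% epiboly resembled that at 30% epiboly in size. It read 49.4 and 38.4 in WT and 101 and 78.2 in MZspg, with a log2 difference of 0.90 (SE 0.357, 95% interval 0.12 to 1.68, unadjusted p = 0.0274, adjusted p = 0.169 by limma). The difference was 0.92 for replicate 1 and 0.88 for replicate 2, and 0.73 to 1.07 over the fits with an array left out, in 0 of which it was called. Without both arrays of high spike-in signal it was 0.92 (adjusted p = 0.49). The other 4 members were 2.53-fold to 8.03-fold brighter on MZspg replicate 2 than on replicate 1, whereas hnf4a was 0.772 times as bright there.

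Of the 5 tested members 2 were called higher and 0 lower in MZspg at 60% epiboly. Of all tested probe sets 4.52% were called, 2.28% as higher and 2.24% as lower. All 5 members and 22.2% of all tested probe sets had an unadjusted p under 0.05. Both MZspg arrays lay above both WT arrays for all 5 members and for 28.7% of all tested probe sets. The median difference of the members was 1.86 and that of all tested probe sets 0.01. Because apobb.1, apoa2 and fabp1b.1 passed the filter only through these MZspg arrays, the member counts and median are a description.

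**Figure D2:**
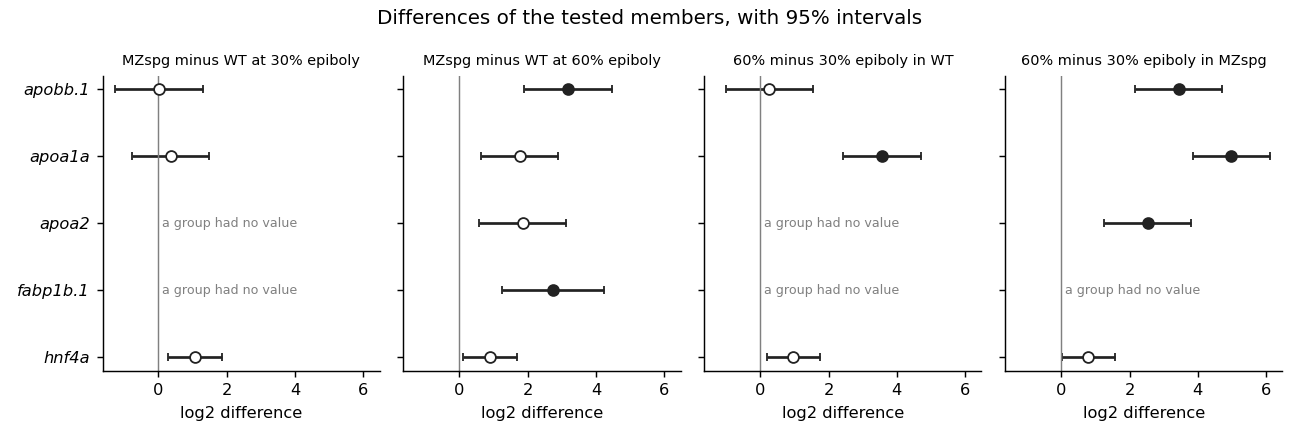
Log2 differences of the 5 tested members in the 4 comparisons, with 95% intervals from the limma fit (x axis, log2 units), filled where the adjusted p lay under 0.05. Comparisons in which every array of a group was empty are left blank. All intervals at 60% epiboly lie above 0, and 2 of them are called.

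**Figure D3:**
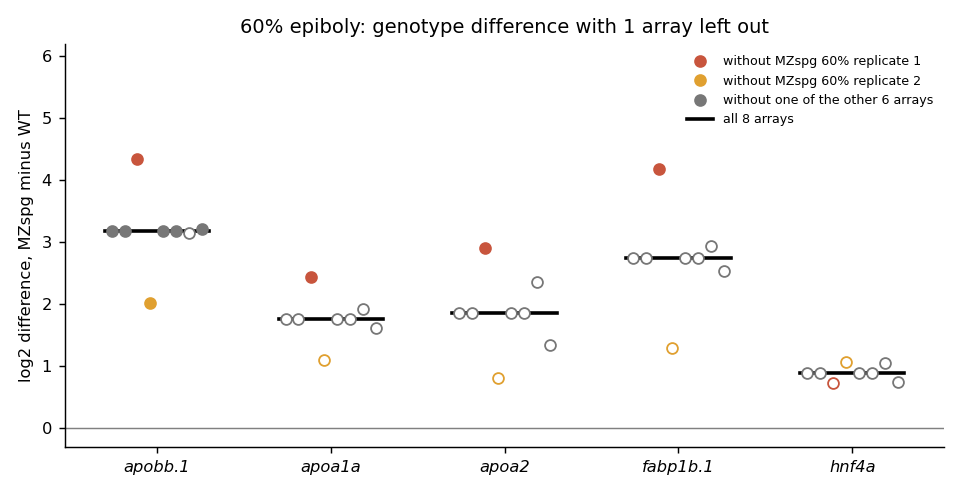
Log2 difference between MZspg and WT at 60% epiboly for the 5 tested members with all 8 arrays (black bars) and with 1 array left out (points, filled where called). The points of apobb.1, apoa1a, apoa2 and fabp1b.1 move up without MZspg replicate 1 and down without MZspg replicate 2, and those of hnf4a stay between 0.73 and 1.07.

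Between 30% and 60% epiboly 1 member was called higher in WT and 4 in MZspg, and hnf4a was called in neither. In WT the called member was apoa1a: from an empty cell and 12.6 it reached 244 and 197, a fitted log2 difference of 3.56 (SE 0.518, 1 cell filled, adjusted p = 0.00582 by limma), with 4.29 at a pseudocount of 1 and 2.16 at one of 50. The early arrays were not above background, and the late mean was at least 8.91-fold above that level. The call was lost without WT replicate 1 of 30% epiboly, the array of the empty cell (adjusted p = 0.135), a fit in which 0 probe sets of the whole array were called. In WT 13.7% of all tested probe sets were called, 5.60% as higher and 8.14% as lower at 60% epiboly. By unadjusted p 2 members (apoa1a and hnf4a) passed, as did 31.3% of all. Both late arrays lay above both early arrays for 5 members, empty cells being filled, and for 28.4% of all. For apobb.1, apoa2 and fabp1b.1, with at least 1 late array under 24.6 and empty early cells, this order depended on the fill. The WT difference was 0.26 for apobb.1 (95% interval -1.02 to 1.55, 1 cell filled, adjusted p = 0.801 by limma), and 0.96 for hnf4a (0.18 to 1.74, adjusted p = 0.0898). The early hnf4a arrays were under background level too, and the late hnf4a mean was at least 1.77-fold above that level. The fitted hnf4a value was 1.23 at a pseudocount of 1 and 0.46 at one of 50. For fabp1b.1, whose WT arrays were both empty at 30% epiboly, the geometric mean of the late arrays was 1.19-fold above background level, replicate 1 lying above it and replicate 2 just under it (adjusted p = 0.28 for the filled values). The WT signals of apoa2 at 60% epiboly lay below that level on average, so no fold is given.

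In MZspg, 4 of the 5 members were called higher at 60% than at 30% epiboly, a comparison in which 32.6% of all tested probe sets were called, 13.9% as higher and 18.8% as lower. All 5 had an unadjusted p under 0.05, as did 44.5% of all. In all 5 both late arrays lay above both early ones, as in 29.9% of all. The log2 difference was 4.98 for apoa1a (SE 0.518, adjusted p = 0.000414 by limma), 3.43 for apobb.1 (SE 0.586, 1 early cell filled, adjusted p = 0.00219) and 2.54 for apoa2 (SE 0.583, 1 early cell filled, adjusted p = 0.00815). The early arrays of apobb.1, apoa2 and fabp1b.1 were not above background, and the fitted values moved with the pseudocount, from 1.97 to 4.38 for apobb.1 and from 1.41 to 3.18 for apoa2. The late mean was at least 6.41-fold above background level for apobb.1, 4.05-fold for apoa2 and 9.87-fold for fabp1b.1 (both early cells filled, adjusted p = 0.00245). On replicate 1 alone these were 2.72-fold, 1.83-fold and 3.48-fold, and on replicate 2 alone 15.1-fold, 8.97-fold and 28.0-fold. The hnf4a difference was 0.79 (95% interval 0.01 to 1.57, adjusted p = 0.109). With an array left out the differences ran from 4.30 to 5.65 for apoa1a and from 2.27 to 4.60 for apobb.1. The call of apoa2 was lost without replicate 2 of MZspg at either stage (differences 2.39 and 1.49). This comparison shares the MZspg arrays of 60% epiboly with the genotype comparison. As apobb.1, apoa2 and fabp1b.1 passed the filter only through those arrays, their calls here are a description, also with an array left out.

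Whether the genotype difference itself changed between the stages was tested as an interaction, in which 0 of 7375 probe sets passed by limma and 8.65% had an unadjusted p under 0.05. For apobb.1 the interaction was 3.17 (SE 0.829, unadjusted p = 0.00253, adjusted p = 0.419 by limma), a fitted value with 3 of the 4 groups not above background. Without MZspg replicate 1 of 60% epiboly it was 4.33. For apoa1a it was 1.42 (95% interval -0.18 to 3.02, adjusted p = 0.643). For hnf4a it was -0.17 (95% interval -1.28 to 0.93, adjusted p = 0.959), and 0.044 with a pseudocount of 50. For apoa2 and fabp1b.1 it rests on groups with no value and is not given.

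By mean signal, apobb.1, apoa2 and fabp1b.1 were highest in MZspg at 60% epiboly. Both of their 30% groups were not above background. WT at 60% epiboly lay under that level for apobb.1, under it on average for apoa2 and 1.19-fold above it for fabp1b.1. These groups could therefore not be ordered. For apobb.1 the step from the 30% groups to WT at 60% epiboly was within the interval of no change. For apoa1a the 30% groups overlapped, WT at 60% followed (221 ± 33.3, SD, n = 2) and MZspg at 60% was highest (854 ± 524). For apobb.1, apoa2 and fabp1b.1 the MZspg means at 60% epiboly were 219 ± 215, 133 ± 124 and 387 ± 426, with SDs close to or above the means. For hnf4a WT at 30% epiboly was lowest (mean 18.03 ± 2.49, SD, n = 2) and MZspg at 60% was highest (89.7 ± 16.3). Between them WT at 60% (43.9 ± 7.82) and MZspg at 30% epiboly (48.4 ± 12.3) differed by less than their spread.

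The 2 arrays of a group were also compared over transcripts that change with stage. Of the 413 probe sets called higher at 60% epiboly in WT, the median difference between MZspg replicate 2 and replicate 1 of 30% epiboly was -0.65, and 9.93% were above 0. Over the 600 called lower in WT it was 0.46, and over all tested probe sets -0.04. In WT at 30% epiboly the same medians were 0.25 and -0.41. The apoa1a signal on the MZspg arrays of 30% epiboly, 30.5 and 6.53, differed in the same direction as the transcripts that rise. At 60% epiboly the median of the 413 was 0.11 in MZspg and -0.20 in WT, while the differences of apobb.1, apoa1a, apoa2 and fabp1b.1 between the MZspg arrays were 2.32, 1.32, 2.09 and 2.88. The part of embryo age in these differences was not tested.

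**Figure D4:**
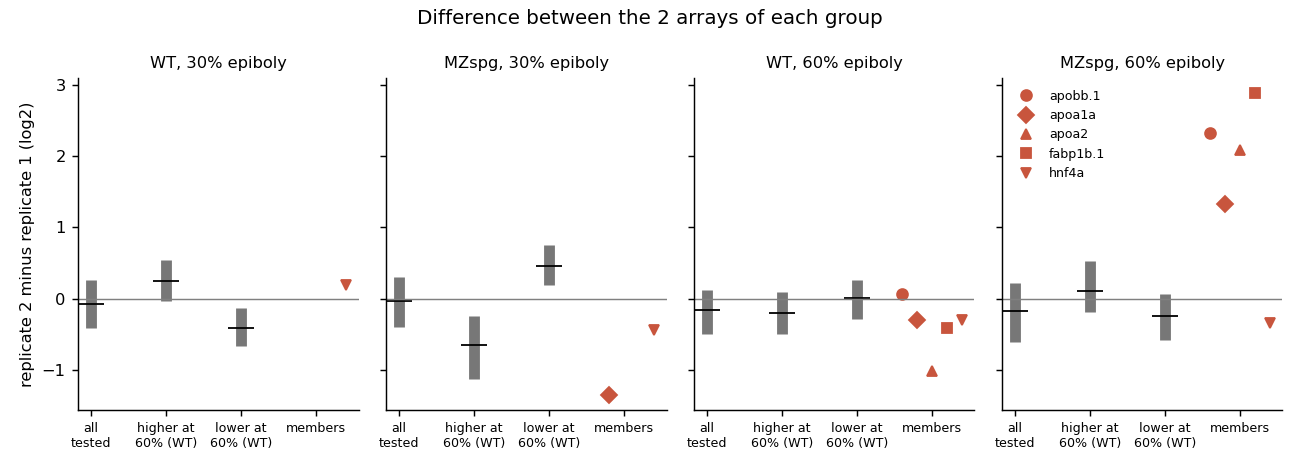
Replicate 2 minus replicate 1 within each group (log2 units). Bars span the quartiles and dashes mark the median of all 7375 tested probe sets, of the 413 called higher and of the 600 called lower at 60% epiboly in WT, and red symbols are members with values on both arrays. In MZspg at 60% epiboly all members but hnf4a lie between 1.32 and 2.88, above the quartiles of all tested probe sets.

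Other apolipoprotein genes were examined from a list of 24, of which 13 were on the array and 8 were tested. Besides apobb.1, 0 genes of the list were called at 60% epiboly, and the median difference was 0.84 over the 8 and -0.38 over the 5 that are not members. The gene of the lipoprotein lipase activator, apoc2, read 317 and 153 in WT at 60% epiboly. Its MZspg arrays read 443 and 828 (log2 difference 1.42, adjusted p = 0.302 by limma), the higher being replicate 2. The apolipoprotein E gene apoeb read 3297 and 3353 in WT against 2403 and 2698 in MZspg (-0.38, adjusted p = 0.529). The differences of apoc1 (0.26), apoda.2 (-0.88) and apooa (-0.91) were not called either. Between the stages in MZspg 6 of the 8 rose, where 13.9% of all tested probe sets were called higher. These include the members apobb.1, apoa1a and apoa2, the first and last having passed the filter only through the late MZspg arrays. Of the 5 that are not members 3 rose, apoc1 (2.70), apoc2 (3.57) and apoeb (1.01), and apoda.2 fell (-0.98). Without MZspg replicate 2 of 30% or of 60% epiboly the calls of these 4 were lost, with apoc1 at 0.98 and apoeb at 0.38 in the lowest fits. Those of apoeb and apoda.2 were kept in 3 and 2 of the 8 fits with an array omitted.

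Of 15 fatty acid-binding protein genes 4 were on the array, and fabp3, the heart and muscle form, was the other one tested. It read 376 and 251 in WT against 234 and 292 in MZspg at 60% epiboly (-0.23, adjusted p = 0.71 by limma), and fell in MZspg between the stages (-0.91, adjusted p = 0.0421), a call kept in 1 of 8 fits with an array omitted. Lipoprotein assembly genes gave 0 calls among 6 tested at 60% epiboly, with a median of 0.31. The protein disulfide isomerase gene pdia4 had a difference of 0.94 (adjusted p = 0.155), mia2 0.60, the stress factor gene xbp1 -0.32 and the vesicle coat gene sec23a 0.36. Between the stages pdia4 fell in WT (-1.52, adjusted p = 0.0224) and in MZspg (-1.04, adjusted p = 0.045), while the coat GTPase gene sar1b rose in MZspg (0.96, adjusted p = 0.0363). These calls were kept in 4, 1 and 3 of the 8 fits with an array omitted.

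Among 6 tested receptor and lipase genes angptl4, whose protein inhibits lipoprotein lipase, was called. It read 14.6 and 8.16 in WT against 168 and 164 in MZspg at 60% epiboly. The log2 difference of 3.12 (adjusted p = 0.000709 by limma) was called whichever array was left out. Its MZspg arrays were alike, with a signal on replicate 2 no higher than on replicate 1. The very-low-density lipoprotein receptor gene vldlr (-0.48), the endothelial lipase gene lipg (0.83), the receptor chaperone gene lrpap1 (0.23) and the high-density lipoprotein receptor gene scarb1 (-0.09) were not called. Between the stages in MZspg, lipg differed by -1.59 to -0.85 and vldlr by -2.59 to -2.09 with an array omitted. Both lipg (-2.11) and vldlr (-1.98) fell in WT between the stages (adjusted p = 0.0127 and 0.0128). Both calls were lost without WT replicate 1 of either stage and that of lipg also without WT replicate 2 of 60% epiboly (highest adjusted p = 0.162 and 0.182).

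**Figure D5:**
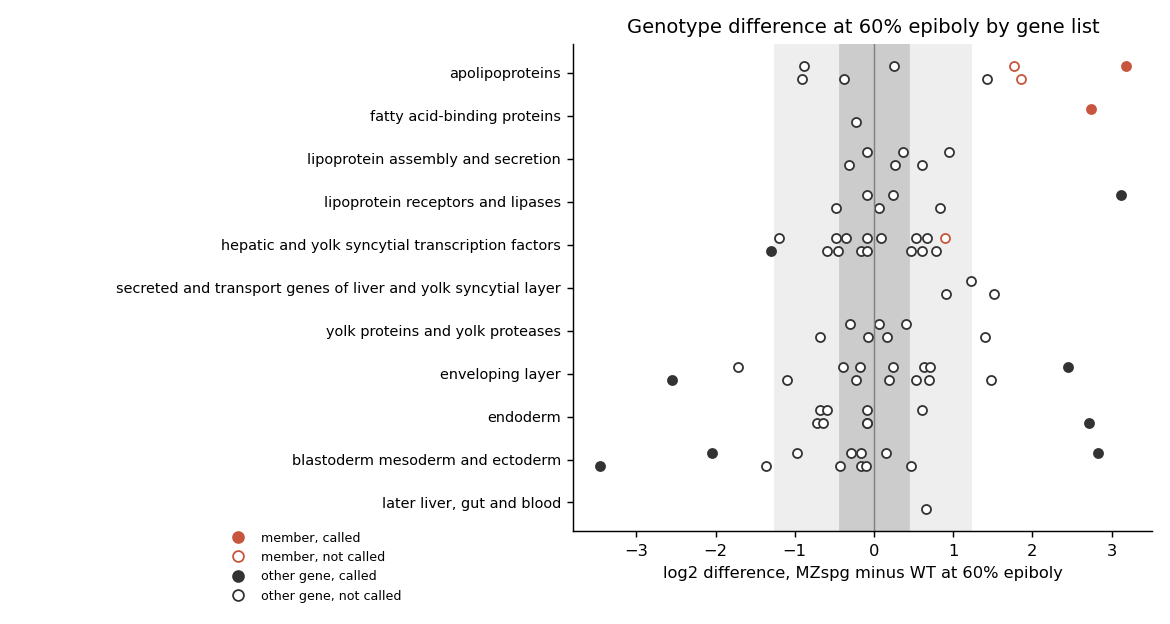
Log2 difference between MZspg and WT at 60% epiboly (x axis) of every tested gene of the 11 lists, 1 probe set per gene, with members in red and filled circles where called. Dark grey spans the quartiles of all tested probe sets (-0.43 to 0.44) and light grey the 5th to 95th percentiles (-1.25 to 1.22).

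Transcription factor genes of liver, endoderm and the yolk syncytial layer, 16 tested of 27 on the array, had 1 call at 60% epiboly and a median of -0.09. The leucine zipper gene cebpb was lower in MZspg at both stages. At 60% epiboly it read 1930 and 1699 in WT against 890 and 593 in MZspg (-1.31, adjusted p = 0.0241 by limma), and at 30% epiboly it differed by -1.50 (adjusted p = 0.0223). The call was kept in 3 and 5 of the 8 fits with an array omitted at 60% and 30% epiboly (highest adjusted p = 0.161 and 0.232). Among the others hhex differed by 0.67, klf6a by 0.78 and nr0b2a, a corepressor of nuclear receptors, by -1.20 at 60% epiboly, none called, and the other nr0b2a probe set by -0.05. The homeobox gene mxtx2, a regulator of yolk syncytial layer formation, read 206 and 97.9 in WT and 62.3 and 258 in MZspg at 30% epiboly, so its groups overlapped. Between the stages it fell in WT (-2.38, kept in 4 of 8 fits) and in MZspg (-2.72, kept in 7). In WT hhex (1.76), foxa2 (1.67), cebpa (1.84) and gata6 (1.73) rose between the stages (highest adjusted p = 0.0362), calls kept in 4 or 5 of the 8 fits. These 4 genes rose in MZspg as well. With an array omitted the MZspg rise was 2.22 to 2.55 for hhex and 2.14 to 2.90 for foxa2. It was 2.12 to 3.19 for cebpa and 1.25 to 2.86 for gata6. The untested paralogue hnf4b was empty at 30% epiboly, and at 60% epiboly it read 24.9 and 12.8 in WT against 40.1 and 80.7 in MZspg.

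Secreted and transport genes of liver and yolk syncytial layer had 10 genes on the array and 3 tested, all higher in MZspg at 60% epiboly and 0 called. The transferrin gene tfa read 161 and 96.8 in WT against 224 and 415 in MZspg (1.23, adjusted p = 0.117 by limma). The methyltransferase gene bhmt read 632 and 842 in WT against 1387 and 3166 in MZspg (1.51, adjusted p = 0.162), with 1.69 on its other probe set. The sulfate transporter gene slc26a1 had a difference of 0.91 (adjusted p = 0.174). The summed signal of the 10 genes was 868 and 976 on the WT arrays, 1712 on MZspg replicate 1 and 3815 on MZspg replicate 2. Most of each sum was bhmt, and 2 to 5 of the 10 genes were empty on each of these arrays. Both tfa and bhmt rose from 30% to 60% epiboly in WT, by 2.80 and 4.01 (adjusted p = 0.00618 and 0.00582), with calls lost without WT replicate 1 of 30% epiboly. In MZspg the rise between the stages was 3.65 to 4.52 for tfa and 4.49 to 6.27 for bhmt with an array omitted. The protease inhibitor gene serpina1l read 111 on MZspg replicate 2 of 60% epiboly and was empty on the other 7 arrays. Yolk proteases, 7 tested, gave 0 calls between the genotypes, with a median of 0.06. Those with the smallest p were ctsz (-0.68), psap (-0.31), ctsba (1.40) and ctsc (0.40), the first and the last 2 being cathepsin genes.

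Markers of other cell layers were set beside the members at 60% epiboly. Of 14 tested enveloping layer genes, the claudin gene cldnf was higher in MZspg (2.45) and klf17 lower (-2.55), with a median of 0.21. The cldnf call was lost without WT replicate 2 of that stage (adjusted p = 0.0751 by limma). The summed signal of the 17 genes on the array reached 17374 and 13578 on the WT arrays, against 11119 and 14165 for MZspg. Of 9 tested endoderm genes prdx5, of an antioxidant enzyme, was called higher (2.71, adjusted p = 0.0347), in 4 of the 8 fits with an array omitted, and was at 1.74 without MZspg replicate 2. The median difference of the 9 tested endoderm genes was -0.09. The endoderm sum reached 3359 and 2882 on the WT arrays, against 2732 and 2715 for MZspg. The defining endoderm gene sox17 read 12.1 and 11.7 in WT, under background level, and was empty on both MZspg arrays. Neither genotype was above background for sox17, so no difference is given for it. Of 12 tested mesoderm and ectoderm genes otx2b was higher (2.83) and sox2 (-3.46) and gata2a (-2.05) were lower. The otx2b call was lost without replicate 2 of either genotype at that stage (highest adjusted p = 0.0548) and that of gata2a without WT replicate 2 (0.0953), and the list had sums of 7970 and 7838 on the WT arrays, against 6960 and 7241 for MZspg. The part of these cell layers in the members' differences was not tested.

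The genes whose profile over the 8 arrays was nearest to each member were sought among all tested genes, by the root mean square difference of log2 values after centring. For apobb.1 they were tbx6 (0.41), fabp1b.1 (0.43) and itih2 (0.44), where the median gene was 1.67 away. For fabp1b.1 they were apobb.1 (0.43), itih2 (0.48) and cxcl12b (0.50). The gene of a plasma protein, itih2, read 31.4 and empty in WT against 114 and 401 in MZspg at 60% epiboly (3.09, 1 WT cell filled, adjusted p = 0.0108 by limma). Its call was lost without replicate 2 of either genotype at that stage (highest adjusted p = 0.0794). For apoa1a they were bhmt (0.38), pck2 (0.47) and aldh1a2 (0.56), with a median gene at 2.38. For apoa2 they were pcdh10b (0.31), slc3a2a (0.34) and kiaa0513 (0.36), and for hnf4a nfatc2ip (0.16), wrap53 (0.18) and kdelr2b (0.19), with median genes at 1.34 and 0.83. The fabp1b.1 and apobb.1 profiles share their 8 arrays, and both are highest on MZspg replicate 2 of 60% epiboly.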

How the data were processed

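RNA of 120 pooled embryos per sample went onto 8 Affymetrix arrays. The deposited values are linear signal intensities of probe sets. Per the submitters' processing notes MAS5 was applied, and the step that gave all arrays the same quantiles, as well as the rule that left 17.3% of cells empty (15.0% to 22.4% of an array), is not given in the sources used here. Genedata Expressionist Analyst served the authors' own comparison, per the design text. Of 12477 probe sets 30 were controls. Of the other 12447, 9206 had 1 gene symbol, 104 several and 3137 none. From the deposited intensities log2(signal + 9) was computed, and 1 mean per group was fitted with limma 3.58.1 in R 4.3.3 (trended eBayes; residual degrees of freedom 4, prior 7.67). All p-values are two-sided. Filling empty cells (1.22% of tested cells) was not foreseen in the design. Each gene is represented by its brightest tested probe set. Members, gene lists and tests were chosen with earlier results of these data known. Named genes of a list are its called members and up to 4 with the smallest p at 60% epiboly, the 3 nearest profiles of each member are named, and other genes were named after their values were seen. On simulated data with 7375 probe sets for the 60% genotype comparison, 92.5% of 67 changes of 2 log2 units and 19.4% of 67 changes of 1 were recovered, with 11 false calls. The simulated spread of a probe set was equal in all groups, with no empty cells. These rates therefore do not carry over to members with filled cells or with MZspg arrays that differ widely. Cross-hybridisation with related genes was not tested. Alternatives were other scalings, pseudocounts, filters, treatments of empty cells, spread estimates and sets of arrays. The number of arrays limits every value.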

Additional observations from a re-analysis of the deposited data

How the results depend on the processing

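At 60% epiboly the log2 difference of apobb.1 remained 3.18 but was not called with no filter (adjusted p = 0.0545), with only the 4 arrays of the stage (3.18, adjusted p = 0.115) or without moderation (3.18, adjusted p = 0.217), and it was 2.06 without both arrays of high spike-in signal (adjusted p = 0.0571). That of fabp1b.1 was 2.74 and not called without an intensity trend (adjusted p = 0.0576), with empty cells at the lowest value (0.0574) or left missing (0.0718), with no filter (0.134), with the 4 arrays of the stage (0.192) or without moderation (0.306). It was 3.01 with a pseudocount of 1 (0.0584) and 1.1 without both arrays of high spike-in signal (0.25). That of apoa1a was called with a pseudocount of 50 (1.61, adjusted p = 0.0245) and with high against low spike-in arrays as a term (1.77, 0.0479). The cause of these changes was not tested. With no filter the number of probe sets tested was larger, and some of the fits used fewer arrays. With each array omitted in turn the differences ran from 2.02 to 4.34 for apobb.1, 1.30 to 4.18 for fabp1b.1, 1.11 to 2.43 for apoa1a, 0.81 to 2.90 for apoa2 and 0.73 to 1.07 for hnf4a.

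The number of members called at 60% epiboly, 2, was 1 without a trend, with empty cells at the lowest value or missing and with a pseudocount of 1. It was 0 with no filter, a stricter filter (fewer members tested), only probe sets with values on all 8 arrays (hnf4a alone tested), only the 4 arrays of the stage, no moderation, and without both arrays of high spike-in signal, and 0 to 4 with 1 array left out. In WT the 1 member called between the stages became 2 with only the 4 WT arrays, and 0 without moderation and over complete probe sets (0 to 2 with 1 array left out). In MZspg the 4 became 1 with a stricter filter or without moderation and 0 over complete probe sets (3 to 4 with 1 array left out). The interaction count was 0 to 2. Signs turned for differences near 0: apobb.1 between the stages in WT (-0.33 with the spike-in term), apobb.1 between genotypes at 30% epiboly (-0.0119 with arrays centred on their medians, -0.14 to 0.17 with 1 array left out), apoa1a there (-0.32 to 1.03), the hnf4a interaction (0.044 with a pseudocount of 50, -0.39 to 0.046 with 1 array left out), and the dim hnf4a probe set, with 0.0622 for the interaction, -0.0424 between the stages in WT and -0.0528 between genotypes at 30% epiboly. Over all probe sets the 124 calls between genotypes at 30% and the 333 at 60% epiboly ran from 3 to 151 and from 26 to 615 over the settings other than leaving out 1 array, and from 22 to 120 and 119 to 757 with 1 array left out. Those between the stages, 1013 in WT and 2405 in MZspg, ran from 6 to 1275 and from 429 to 2516, and from 0 to 1196 and 791 to 2467 with 1 array left out. Same-numbered arrays of the genotypes deviated together weakly, with correlations over probe sets of -0.14 at 30% and 0.08 at 60% epiboly, so the numbers were not taken to pair the samples. With the replicate block the differences at 60% epiboly were the same and 301 probe sets were called. A crossed pairing at 30% epiboly, chosen after the data were seen, gave 117 calls at that stage. A comparison of promoter motifs was not run.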
